A study of Mus musculus with 15 samples.

Results

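The Sox, Gata and T-box genes encode 3 families of transcription factors that direct cell fate in the embryo. Their H3K4me3 promoter marks were followed in differentiated brown adipocyte cultures (mBA cells) of the mouse. The set was defined by name alone. It held every protein-coding gene of the GRCm39 annotation whose symbol is Sox, Gata or Tbx followed only by digits, with Tbxt, Eomes, Tbr1 and Mga added. This gave 42 genes of 21770 protein-coding genes, 19 of them Sox, 6 Gata and 17 T-box genes. Tbxt was found under the symbol T.

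The comparisons ask how this mark differed from WT after loss of CLPP or under 2HG. H3K4me3 ChIP–seq had been performed on 4 replicates each of 3 conditions, with 1 input sample per condition. WT cells were wild type and untreated. WT + 2HG cells were wild type and received a cell-permeable form of 2-hydroxyglutarate in DMSO. CLPP-KO cells came from mice without CLPP, a protease of the mitochondrial matrix, were otherwise untreated and grew with added uridine, a supplement that the labels give for these cells alone. Genotype and uridine therefore cannot be told apart, and the labels name no solvent control for 2HG. All 3 conditions used high-glucose medium without pyruvate. The labels call the cells primary, while the study's methods describe preadipocytes immortalized with the SV40 large T antigen before differentiation. The replicates of a condition had been combined into a single peak list, so no spread between replicates could be given and no difference between conditions could be tested. The 3 lists held 12342 (WT), 14059 (WT + 2HG) and 15118 (CLPP-KO) peaks, and reads per sample were not given in the lists. Values given below "with 2HG" are those of the WT + 2HG list.

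Sox proteins bind DNA through an HMG box, GATA proteins through zinc fingers and T-box proteins through the T domain that names them. Many of these genes are silent in most adult tissues and sit in CpG-rich promoters held by Polycomb complexes. H3K4me3, the trimethylated form of lysine 4 of histone H3, marks the promoters of active genes and, together with Polycomb marks, of genes that are kept silent but poised. A peak therefore shows that a promoter carries the mark, not that the gene is transcribed. In adipose tissue, Gata2 and Gata3 are known as brakes on preadipocyte differentiation, and Tbx15 as a regulator of brown adipocyte genes.

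The cells' own markers were checked first. Of 15 brown adipocyte markers, 5 had a promoter peak in WT and 8 in each of WT + 2HG and CLPP-KO. Prdm16, Zic1, Pparg, Cebpa and Cebpb were marked in every list. Cidea and Plin1 were marked in both lists other than WT, Lipe with 2HG alone and Ebf2 in CLPP-KO alone. Ucp1, Ppargc1a, Dio2, Adrb3, Fabp4 and Adipoq were marked in none, so several defining markers of the labelled cell type were without a peak. Of 7 preadipocyte or fibroblast markers, 5, 5 and 6 were marked in WT, WT + 2HG and CLPP-KO, respectively. None of 7 blood markers was marked in any list, and 2 of 6 endothelial markers (Kdr and Erg) were marked in each. Of 5 muscle markers, 0 were marked in WT, 1 with 2HG (Nkx2-5) and 2 in CLPP-KO (Nkx2-5 and Myod1). Of all coding genes without a WT peak, 11.6% had one with 2HG and 14.9% in CLPP-KO. The brown adipocyte list rose as well, by 3 genes in each. Among 6 neural or Schwann cell markers, 3 were marked in WT and 4 in the other lists, the added one being Sox10, itself one of the 42. Gata1, another, is among the blood markers. The part of cell composition in the results below was not tested.

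A gene was counted as marked when a peak overlapped the sequence within 2000 bp of any of its annotated transcript starts. In WT, 21 of the 42 genes were marked (50.0%, 95% Wilson interval 35.5 to 64.5%), against 51.3% of all coding genes. In WT + 2HG, 28 were marked (66.7%, 51.6 to 79.0%), against 56.4%. In CLPP-KO, 33 were marked (78.6%, 64.1 to 88.3%), against 58.2%. The share of marked genes was thus close to the genome's in WT. With 2HG it was higher, but its interval held the share of all coding genes. In CLPP-KO the interval lay wholly above that share. That position depended on list length. With each list limited to the 12342 peaks of largest area, 28 genes were marked in CLPP-KO (66.7%, 51.6 to 79.0%), against 53.6% of coding genes. With the same number of peaks taken by summit p, 26 were (61.9%, 46.8 to 75.0%), against 53.3%, and both intervals held the share of all coding genes. The intervals cover counting error over genes only. Sox genes went from 11 of 19 in WT to 14 with 2HG and 16 in CLPP-KO. Gata genes numbered 3 of 6 in WT and 5 in each of the other lists. T-box genes numbered 7 of 17, 9 and 12.

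**Figure D1:**
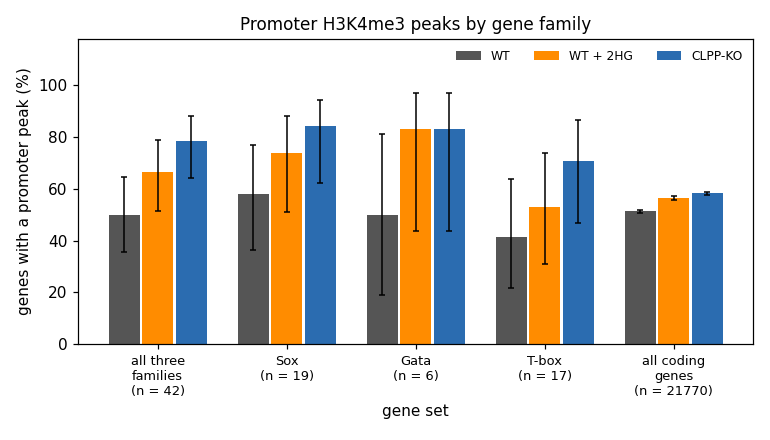
Share of genes with a promoter H3K4me3 peak (%, vertical axis) in the WT, WT + 2HG and CLPP-KO lists, for the 42 genes together, for each family and for all 21770 coding genes; error bars are 95% Wilson intervals, counting error only. The bars for the 42 genes stand at 50.0, 66.7 and 78.6%, those of all coding genes at 51.3, 56.4 and 58.2%.

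Of the 21 genes without a WT promoter peak, 12 had one in CLPP-KO (57.1%, 36.5 to 75.5%), against 14.9% of all coding genes without a WT peak. In WT + 2HG, 7 of the same 21 had one (33.3%, 17.2 to 54.6%), against 11.6%. Both counts use the same WT list and are not independent of each other. None of the 21 genes marked in WT lacked a peak in CLPP-KO (0 of 21, Wilson upper bound 15.5%), where 0.672% of coding genes did. None lacked one with 2HG (0 of 21, upper bound 15.5%), where 0.914% did. Of the 33 genes marked in CLPP-KO, 5 had no WT + 2HG peak (15.2%, 6.65 to 30.9%), against 4.81% of coding genes. They were Sox1, Sox3, Tbx5, Tbx20 and Tbxt. The names turned over with list length, since at equal length by area 4 genes stood in this class (Gata5, Sox2, Sox10 and Tbx5), 1 of them among the 5. No gene was marked with 2HG and not in CLPP-KO (0 of 28), against 1.87%. Part of the gain depended on list length. At equal length by area, 7 genes were gained in CLPP-KO (33.3%, 17.2 to 54.6%, all coding genes 8.39%) and 3 with 2HG (14.3%, 4.98 to 34.6%, all coding genes 7.26%), and the interval with 2HG then held the share of all coding genes.

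The gained genes are given here by subfamily, each of which is small. All 3 SoxB1 genes (Sox1, Sox2 and Sox3, regulators of neural progenitors) were unmarked in WT. Sox2 alone of them was marked in WT + 2HG, and all 3 were marked in CLPP-KO. Gata4 and Gata5, which act in heart and endoderm, were unmarked in WT and marked in both other lists. Tbr1 and Tbx21, the relatives of Eomes known from cortical neurons and T helper cells, followed the same course, as did Sox10 of neural crest and Sox18 of blood and lymph vessels. Tbx5 and Tbx20, which act in the heart, and Tbxt, the mesoderm factor brachyury, were marked in CLPP-KO alone.

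**Figure D2:**
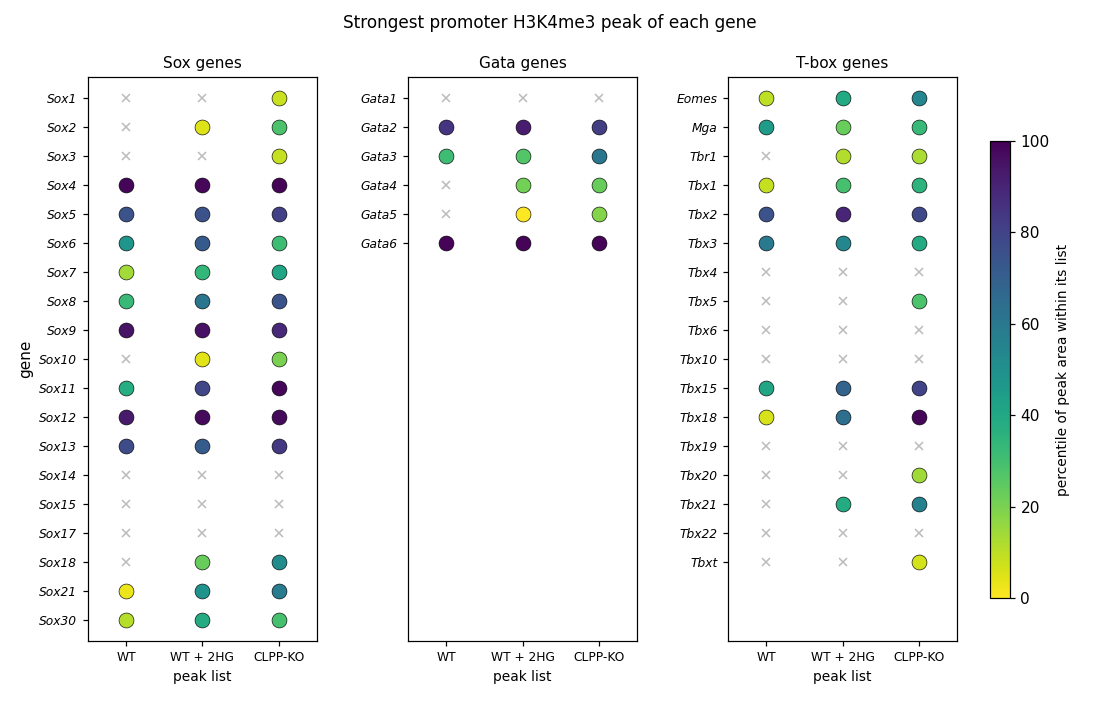
Strongest promoter peak of each of the 42 genes (rows) in the WT, WT + 2HG and CLPP-KO lists (columns); colour gives the percentile of the peak's area among all peaks of its own list, and a cross marks a gene without a promoter peak. Crosses of the WT column give way to circles, most of them pale (low percentiles), at 7 genes in the WT + 2HG column and 12 in the CLPP-KO column, whereas 9 genes have crosses throughout.

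Most of the gained peaks were weak for their list. Areas are not scaled between the lists, so each peak is described by its percentile, the share of the peaks of its own list with an area no larger than its own. In WT + 2HG, all 7 strongest peaks of gained genes lay below the list's median area, and in CLPP-KO 10 of 12 did. Among all coding genes gained, 99.0% and 95.7% lay below it. The median percentile was 11.7 for the 7 genes with 2HG (all gained coding genes 15.5) and 19.4 for the 12 in CLPP-KO (all 20.4). The exceptions were Tbx21 and Sox18 in CLPP-KO. At the summit, the −log10 p of these strongest peaks reached from 3.22 (Gata5) to 9.38 (Tbx21) with 2HG and from 3.4 (Tbxt) to 11.4 (Tbx21) in CLPP-KO.

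Tbx21, the master regulator of type 1 helper T cells, had the strongest of the gained peaks. The nearest WT peak was 35.0 kb from its start. On chromosome 11, its WT + 2HG peak spanned 97005513 to 97006399 (887 bp, percentile 38.9) and its CLPP-KO peak 97005278 to 97006362 (1085 bp, percentile 56.6). The summits lay 265 and 205 bp downstream of the only annotated start, in coding sequence. Sox18 on chromosome 2 came next. Its WT + 2HG peak spanned 181312372 to 181313523 (1152 bp, percentile 23.3) and its CLPP-KO peak 181312269 to 181313581 (1313 bp, percentile 51.9). Both Sox18 peaks also covered the start of the lncRNA Gm74574, so the mark at the pair cannot be assigned to one of them, and the nearest WT peak was 8.3 kb from the start.

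Among the Gata genes, the peaks of Gata4 in both lists centred on one start. On chromosome 14 the WT + 2HG peak spanned 63482578 to 63483143 (566 bp, percentile 21.2) and the strongest CLPP-KO peak 63482477 to 63482963 (487 bp, percentile 23.3). Their summits lay 6 and 19 bp upstream of that start, which is not the canonical one, and 13 bp from each other. CLPP-KO held 2 further, weaker Gata4 peaks at percentiles 17.8 and 1.6. The Gata5 peak on chromosome 2 spanned 179976172 to 179976730 with 2HG (559 bp, percentile 0.5, among the weakest of that list) and 179976248 to 179976808 in CLPP-KO (561 bp, percentile 18.6). The 2 Gata5 peaks were of nearly equal width and both covered the start.

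For Sox2, which maintains pluripotent and neural progenitor cells, the lists differed in shape. On chromosome 3, WT + 2HG had 2 small peaks, at 34703816 to 34704183 (percentile 1.4) and 34705207 to 34705503 (percentile 5.2), on either side of the start. CLPP-KO had 1 peak, at 34704605 to 34705607 (1003 bp, percentile 28.2) over the transcribed region. The Sox10 peak on chromosome 15 spanned 79047355 to 79047894 with 2HG (540 bp, percentile 4.5) and 79047493 to 79048233 in CLPP-KO (741 bp, percentile 20.1). The Sox10 peak covered a Sox10 start in CLPP-KO and none in WT + 2HG. Sox1 had a CLPP-KO peak on chromosome 8 at 12445300 to 12445623 (324 bp, percentile 8.2), with the summit 191 bp downstream of its start. Sox3 had one on chromosome X at 59935477 to 59935872 (396 bp, percentile 9.0), 1323 bp downstream of its start and over the start of the lncRNA Gm14662. The Sox3 peak fell outside the promoter with a window of 1000 bp. The study's peak-calling settings name chromosome X among those left out, yet all 3 lists hold X peaks.

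Among the T-box genes, Tbr1 on chromosome 2 had peaks at 61635217 to 61635864 with 2HG (648 bp, percentile 11.7) and 61635423 to 61636142 in CLPP-KO (720 bp, percentile 12.7). Both lay in an intron and covered no Tbr1 start. Tbx20 on chromosome 9 had a CLPP-KO peak over its start, at 24685414 to 24685854 (441 bp, percentile 14.1). Tbxt on chromosome 17 had one at 8652546 to 8653123 (578 bp, percentile 6.7) that reached its first start from upstream. The Tbx5 peak of CLPP-KO, on chromosome 5 at 119969303 to 119969912 (610 bp, percentile 28.2), lay apart from its gene. Its summit was 1149 bp upstream of the nearest start and 3144 bp upstream of the canonical one, it covered the start of the lncRNA Gm43050, and with canonical starts alone Tbx5 was unmarked.

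**Figure D3:**
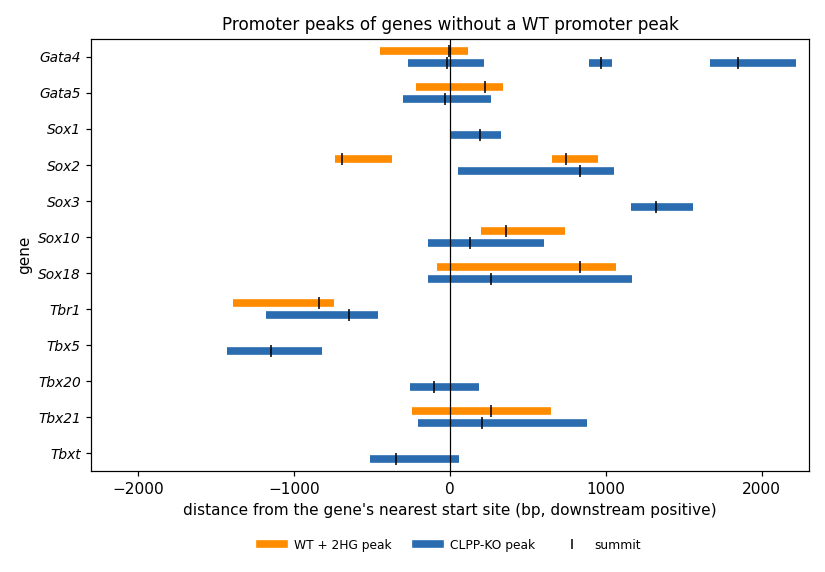
Promoter peaks of the 12 genes marked in CLPP-KO and not in WT, drawn to scale as distance from the gene's nearest start site (bp, downstream positive); orange bars are WT + 2HG peaks, blue bars CLPP-KO peaks and black ticks summits. Gata4, Gata5, Sox18 and Tbx21 have peaks of both lists over a start, Tbr1 and Tbx5 have theirs upstream of the nearest one.

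The promoters behind these gained peaks are shown to let their CpG content be read. RefSeq's table of promoters (build GRCm38.p6, 250 bases before to 50 after a start) held 7 of the 12 genes, and each sequence was located by an exact match in GRCm39. The search was for the dinucleotide CG, which reads the same on both strands, and CG is in capitals. The median promoter of the 32851 in the table held 7. Sox1 held 37 (chr8:12445269-12445568, plus strand), a number reached by 5.58% of the table. Sox2 held 27 (chr3:34703894-34704193, plus strand, 15.5% of the table). Gata5 held 26 (chr2:179976423-179976722, minus strand, 16.9%), as did Tbx20 (chr9:24685550-24685849, minus strand). Tbx21 held 21 (chr11:97006108-97006407, minus strand, 24.8%) and Tbxt 17 (chr17:8653005-8653304, plus strand, 31.4%). Tbr1 held 7, the table's median (chr2:61634547-61634846, plus strand).
Sox1: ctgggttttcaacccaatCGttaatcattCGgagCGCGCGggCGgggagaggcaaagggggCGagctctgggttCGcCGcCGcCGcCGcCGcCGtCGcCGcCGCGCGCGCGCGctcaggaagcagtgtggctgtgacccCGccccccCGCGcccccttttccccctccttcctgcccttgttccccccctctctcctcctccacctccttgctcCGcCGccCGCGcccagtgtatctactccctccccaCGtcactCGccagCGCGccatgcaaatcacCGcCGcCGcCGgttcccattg
Sox2: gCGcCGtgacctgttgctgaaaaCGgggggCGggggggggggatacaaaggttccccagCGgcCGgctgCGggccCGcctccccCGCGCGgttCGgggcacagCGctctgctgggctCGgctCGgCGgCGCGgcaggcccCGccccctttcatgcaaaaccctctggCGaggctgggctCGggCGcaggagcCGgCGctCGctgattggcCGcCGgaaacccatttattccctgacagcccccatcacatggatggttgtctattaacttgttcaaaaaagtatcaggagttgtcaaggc
Gata5: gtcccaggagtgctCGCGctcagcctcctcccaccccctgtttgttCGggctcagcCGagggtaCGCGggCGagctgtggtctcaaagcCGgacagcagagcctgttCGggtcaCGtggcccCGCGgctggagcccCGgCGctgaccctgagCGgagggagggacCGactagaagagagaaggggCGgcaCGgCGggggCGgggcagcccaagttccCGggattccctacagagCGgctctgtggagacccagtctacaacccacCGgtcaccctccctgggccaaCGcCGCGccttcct
Tbx20: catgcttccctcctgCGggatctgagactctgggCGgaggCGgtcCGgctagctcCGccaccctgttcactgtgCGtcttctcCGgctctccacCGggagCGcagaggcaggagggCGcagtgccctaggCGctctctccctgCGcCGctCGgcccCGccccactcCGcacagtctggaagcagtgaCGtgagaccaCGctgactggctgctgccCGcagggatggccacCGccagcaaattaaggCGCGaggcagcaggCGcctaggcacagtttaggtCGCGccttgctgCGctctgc
Tbx21: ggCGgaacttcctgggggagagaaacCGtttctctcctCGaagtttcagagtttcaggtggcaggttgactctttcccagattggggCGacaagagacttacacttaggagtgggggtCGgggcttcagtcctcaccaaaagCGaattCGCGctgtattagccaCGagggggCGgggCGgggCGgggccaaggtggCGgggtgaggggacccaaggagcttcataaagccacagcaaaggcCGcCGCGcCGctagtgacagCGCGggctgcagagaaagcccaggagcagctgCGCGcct
Tbxt: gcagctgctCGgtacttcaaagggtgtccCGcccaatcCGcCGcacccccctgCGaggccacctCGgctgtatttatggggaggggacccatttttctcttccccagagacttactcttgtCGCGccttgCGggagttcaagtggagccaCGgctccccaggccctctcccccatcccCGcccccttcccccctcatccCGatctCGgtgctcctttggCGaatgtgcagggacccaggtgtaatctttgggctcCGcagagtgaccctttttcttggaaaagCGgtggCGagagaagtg
Tbr1: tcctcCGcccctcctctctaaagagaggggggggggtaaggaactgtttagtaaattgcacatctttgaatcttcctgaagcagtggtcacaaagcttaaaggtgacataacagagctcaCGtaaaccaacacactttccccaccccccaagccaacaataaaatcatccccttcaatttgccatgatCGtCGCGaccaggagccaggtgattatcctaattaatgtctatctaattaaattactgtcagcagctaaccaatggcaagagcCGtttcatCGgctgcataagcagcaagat
Of the 300 bases shown, the CLPP-KO peak covered all in Gata5 and Tbx20, 269 in Sox1, 255 in Tbx21 and 119 in Tbxt. It covered 0 in Sox2 and Tbr1, where the CLPP-KO peak began further downstream. RefSeq places the Sox2 start upstream of the one in the GENCODE annotation. The WT + 2HG peaks covered 300 bases in Gata5, 292 in Tbx21 and 290 in Sox2. A CG count describes the sequence and shows no binding site or cause.

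CpG content was also measured for all 42 genes, as the ratio of observed to expected CpG within 500 bp of the canonical start in GRCm39. Its median was 0.75 for the 21 genes marked in WT (all coding genes marked in WT 0.75), 0.66 for the 12 gained genes (all gained coding genes 0.58) and 0.33 for the 9 unmarked genes (all unmarked coding genes 0.20). Of the 28 genes with a ratio of at least 0.6, 19 were marked in WT (67.9%, 49.3 to 82.1%), an interval below the 86.9% of the coding genes in that class. With 2HG, 23 of the 28 were marked, again a lower share than in the class, where 9601 of the 10385 coding genes were. In CLPP-KO, 27 of the 28 were marked (96.4%, 82.3 to 99.4%), against 93.8% of the class. Of the 9 CpG-rich genes without a WT peak, 8 were gained in CLPP-KO (88.9%, 56.5 to 98.0%), against 55.5% of such coding genes, and 4 with 2HG (44.4%, 18.9 to 73.3%), against 45.9%. The WT + 2HG gain was thus near the class's own share. The CLPP-KO gain had a lower bound just above the class share, and this did not hold under other settings. Without Tbxt, 7 of 8 were gained (87.5%, 52.9 to 97.8%), against 55.5% of the class. With a window of 1000 bp, 8 of 10 were (80.0%, 49.0 to 94.3%), against 55.3%. Both intervals held the class share, as did those at equal list length. At equal length by area, 4 of the 9 were gained in CLPP-KO (44.4%, 18.9 to 73.3%), against 36.1% of the class, and by summit p 2 of the 9 (22.2%, 6.32 to 54.7%), against 34.9%. The exception among the 9, Sox14, was unmarked in every list. Sox5 and Sox6, the only genes marked in WT with a ratio below 0.6, were marked at starts far upstream of the canonical one, so their ratio does not describe the marked sequence. The gained genes below 0.6 share this limit. Their strongest CLPP-KO summits lay 849 (Gata4), 731 (Sox10), 1163 (Tbr1) and 3144 bp (Tbx5) from the canonical start. Those of Sox2, Sox3 and Tbxt, above 0.6, also lay beyond 500 bp. The ratio of these genes need not describe the marked sequence.

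**Figure D4:**
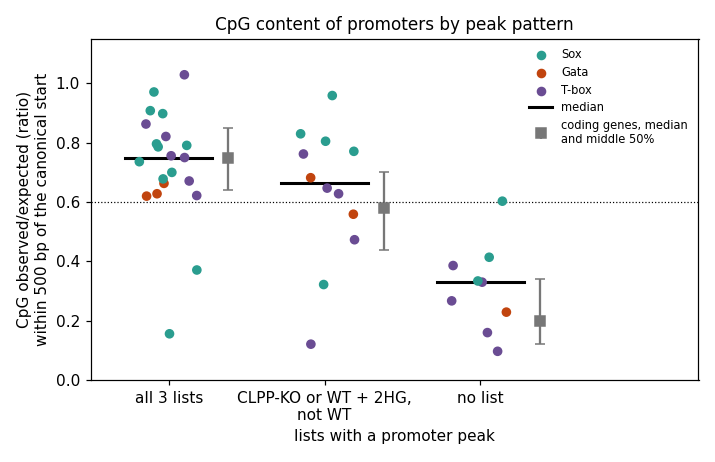
Observed to expected CpG ratio (vertical axis) of the 42 promoters, grouped by the lists in which they had a peak; points are genes coloured by family, black bars the medians (0.75, 0.66 and 0.33), grey squares with bars the median and middle 50% of coding genes marked in WT, gained, or unmarked, and the dotted line a ratio of 0.6. Genes in no list lie low, with Sox14 at the line.

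The 21 genes marked in all 3 lists included the strongest peaks. Gata6, which specifies endoderm and heart, was first in WT (percentile 99.0) and stood at 98.8 with 2HG and 98.9 in CLPP-KO. On chromosome 18 its strongest peak spanned 11052440 to 11055927 in WT (3488 bp), 11052186 to 11055686 with 2HG (3501 bp) and 11052291 to 11055535 in CLPP-KO (3245 bp). It also covered starts of the lncRNA Gata6os, whose nearest start is 1 bp from one of Gata6. The strongest Sox4 peak, on chromosome 13, spanned 29135533 to 29137580 in WT (percentile 98.8), 29135603 to 29137593 with 2HG (98.2) and 29135406 to 29137527 in CLPP-KO (99.1). Both genes stood near the top of the scale in every list, where a percentile cannot show a further rise.

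Sox4, Sox11 and Sox12 form the SoxC group, known for roles in progenitor cells. Sox12 on chromosome 2 stood at percentiles 93.3 in WT, 97.6 with 2HG and 97.5 in CLPP-KO, with peaks spanning 152238402 to 152240063 (1662 bp), 152238171 to 152240551 (2381 bp) and 152238397 to 152240411 (2015 bp). Among the 21 genes, Sox11 had the second largest difference in percentile between CLPP-KO and WT. On chromosome 12 its strongest peak lay at percentile 38.3 in WT (27391813 to 27392650, 838 bp), 79.0 with 2HG (27391245 to 27393353, 2109 bp) and 98.7 in CLPP-KO (27391056 to 27393532, 2477 bp). By summit p its percentiles were 56.8 in WT, 40.3 with 2HG and 76.2 in CLPP-KO, so by that measure Sox11 was lowest with 2HG. The covered promoter sequence of Sox11 was 1132, 2109 and 2477 bp, the 2 WT peaks being joined into 1 in the other lists.

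The largest such difference was that of Tbx18, a regulator of mesenchymal progenitors and heart. Its peak on chromosome 9 spanned 87611963 to 87612478 in WT (516 bp, percentile 6.1), 87611402 to 87613174 with 2HG (1773 bp, percentile 64.0) and 87611261 to 87613313 in CLPP-KO (2053 bp, percentile 98.5). The WT peak of Tbx18 covered no start of the gene, and the others did. Tbx15, a close relative, stood at percentiles 41.2 in WT (99160682 to 99161602 on chromosome 3), 68.5 with 2HG (99160820 to 99161714) and 80.2 in CLPP-KO (99160691 to 99161938). An upstream start of Tbx15 had a peak in WT + 2HG (99147528 to 99148094) and in CLPP-KO (99147452 to 99148039), at percentiles 14.2 and 42.3, and none in WT. Tbx1, the third of the group, stood at 8.8 in WT (18400271 to 18401045 on chromosome 16), 29.3 with 2HG (18400597 to 18401375) and 35.4 in CLPP-KO (18400491 to 18401722). A peak over the canonical Tbx1 start was listed with 2HG (18405175 to 18405751) and in CLPP-KO (18405039 to 18405775) and not in WT, so that with canonical starts alone Tbx1 counted as gained.

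Eomes and Sox21 followed Tbx18 and Sox11. Eomes, a factor of mesoderm and cortex, was at percentiles 9.9 (WT), 39.6 (WT + 2HG) and 53.9 (CLPP-KO), and Sox21, a relative of the SoxB1 genes, at 3.0, 48.6 and 58.6 in the same order. The Sox21 peaks also covered the start of the lncRNA Sox21os1. Sox7, an endothelial factor, was at 13.7, 34.3 and 40.6, and Sox30, known from spermatids, at 11.2, 38.8 and 29.5. When peaks of every list had to reach a summit p of 1e-05, Eomes, Sox21, Sox30, Tbx1 and Tbx18 dropped out of the WT list and counted as gained in both other lists.

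The SoxE genes Sox8 and Sox9 differed from each other. Sox8 on chromosome 17 was at percentile 32.5 in WT (25789252 to 25790342), 61.0 with 2HG (25789078 to 25790569) and 74.6 in CLPP-KO (25788971 to 25790621), the peaks also covering the start of the lncRNA Cerox1, 19 bp away. Sox9, the chondrocyte regulator on chromosome 11, was near the top in WT (112673052 to 112674328, percentile 95.2) and WT + 2HG (112672869 to 112676382, 95.6) and at 88.8 in CLPP-KO (112673018 to 112674333). The strongest WT + 2HG peak of Sox9 overlapped 2 WT peaks and 3 CLPP-KO peaks, so the percentile of a strongest peak also depends on where peaks were split.

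The SoxD genes Sox5, Sox6 and Sox13 lack an activation domain of their own and pair with other Sox factors. Sox13 on chromosome 1 was at 77.3 in WT (133350635 to 133352189), 71.2 with 2HG (133350598 to 133352290) and 83.9 in CLPP-KO (133350522 to 133352264). Sox5 on chromosome 6 was at 74.4 (144727082 to 144728191), 74.8 (144726822 to 144728211) and 81.0 (144727010 to 144728494), at the most upstream start. Sox6 on chromosome 7 was at 47.7 in WT (115632747 to 115633846), 72.1 with 2HG (115632694 to 115633922) and 31.5 in CLPP-KO (115632798 to 115633741). By area, Sox6 thus had its highest rank with 2HG and its lowest in CLPP-KO. By summit p its percentiles were 67.4 in WT, 65.9 with 2HG and 26.3 in CLPP-KO. Sox6 was also the only one of the 42 with a start of another coding gene, 1110004F10Rik, within 2000 bp, and 1 of its 3 WT peaks lay nearer to that gene.

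Gata2 and Gata3 showed opposite orders. Gata2 on chromosome 6 was at 84.4 in WT (88173869 to 88176983, 3115 bp), 92.5 with 2HG (88173711 to 88177571, 3861 bp) and 82.4 in CLPP-KO (88175148 to 88177766, 2619 bp). In CLPP-KO the Gata2 region was listed as 2 peaks, and the Gata2 sequence covered was 3750, 4891 and 5084 bp in the 3 lists. Gata3 on chromosome 2 was at 31.0 in WT (9883329 to 9883948), 27.2 with 2HG (9883351 to 9883844) and 60.9 in CLPP-KO (9881590 to 9883128). The CLPP-KO value of Gata3 came from another peak, which overlapped no peak of WT or WT + 2HG and covered the start of the lncRNA Gm13256. The CLPP-KO peak at the shared Gata3 position stood at 32.8.

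Tbx2 and Tbx3, repressors that hold back senescence, were at 74.9, 89.8 and 78.5 and at 59.0, 54.1 and 39.2 in WT, WT + 2HG and CLPP-KO. The strongest Tbx3 peak of CLPP-KO was another peak than that of the other lists. Mga, which joins the T-box to a MAX-binding domain in the repressive complex PRC1.6, was at 45.3 in WT (119727594 to 119728885 on chromosome 2), 22.9 with 2HG (119727573 to 119728293) and 32.8 in CLPP-KO (119727701 to 119728369), with widths of 1292, 721 and 669 bp. Tbx3, Mga, Sox6 and Sox9 were the genes with a percentile more than 5 points lower in CLPP-KO than in WT.

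Over the 21 genes, 15 had a higher percentile in CLPP-KO than in WT, against 69.9% of the 11021 coding genes marked in all lists, and 15 in WT + 2HG than in WT, against 64.3%. In CLPP-KO 14 stood higher than in WT + 2HG, against 58.2%. As shares of 21 these counts (71.4, 71.4 and 66.7%) were near the background, which lay above 50% in lists that hold more peaks than WT. The median difference was 6.6 points between CLPP-KO and WT (all coding genes 5.3) and 14.9 points between WT + 2HG and WT (all 3.7). With lists of equal length by area, 14, 13 and 13 of the 21 stood higher (66.7, 61.9 and 61.9%), against 47.3, 49.9 and 47.6% of coding genes. Ranked by summit p, 13, 13 and 14 did (61.9, 61.9 and 66.7%), against 67.0, 62.6 and 52.9%. Ranked by width, 14, 14 and 12 did (66.7, 66.7 and 57.1%), against 57.7, 54.3 and 54.8%. The direction against the background thus depended on the measure.

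**Figure D5:**
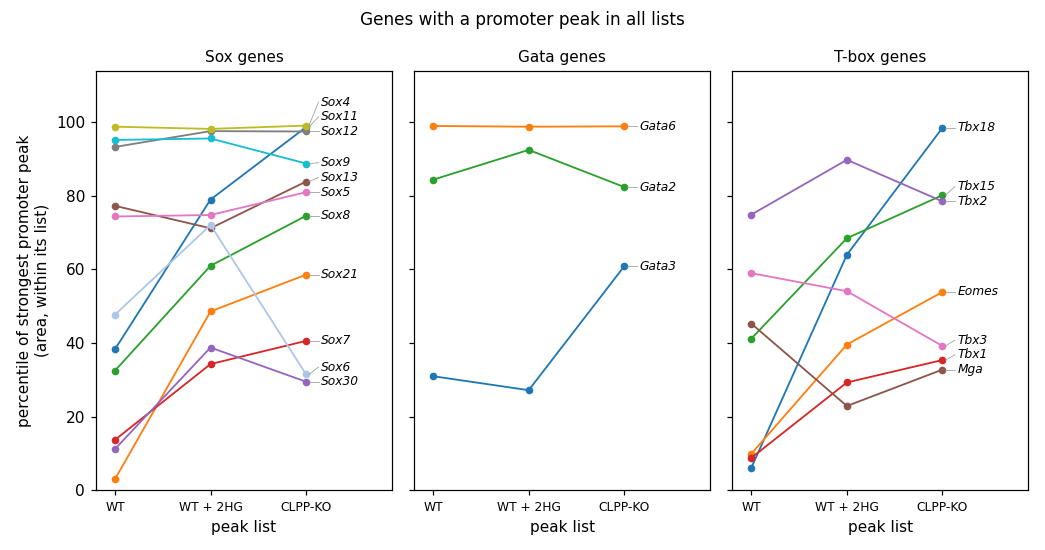
Percentile of the strongest promoter peak (vertical axis, by area within its own list) of the 21 genes marked in WT, WT + 2HG and CLPP-KO, 1 line per gene and 1 panel per family. Tbx18 goes from 6.1 to 64.0 and 98.5 and Sox11 from 38.3 to 79.0 and 98.7, while Gata6 and Sox4 stay near 99.

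Wide and repeated promoter peaks were counted as well. A peak of at least 2000 bp was found at 3 of 21 genes in WT (14.3%, 4.98 to 34.6%, all coding genes 3.95%), 7 of 28 with 2HG (25.0%, 12.7 to 43.4%, all 6.07%) and 7 of 33 in CLPP-KO (21.2%, 10.7 to 37.8%, all 5.99%). The lower bound was above the share of all coding genes in each list. At least 2 promoter peaks were found at 7 of 21 genes (33.3%, 17.2 to 54.6%, all coding genes 17.4%), 7 of 28 (25.0%, 12.7 to 43.4%, all 16.3%) and 10 of 33 (30.3%, 17.4 to 47.3%, all 16.9%), with intervals that held or nearly held the share of all coding genes. The strongest peak covered a start of its gene at 13 of 21, 22 of 28 and 24 of 33 genes. Its summit lay a median of 385, 339 and 344 bp from the nearest start. Outside the promoter windows, Sox11, Sox9, Sox4, Tbr1, Tbx2, Tbx15 and Gata3 had further peaks in the gene body in at least 1 list.

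The remaining 9 genes had no promoter peak in any list. Gata1, the erythroid GATA factor, had its nearest peak 64.4 kb from a start in WT and 16.3 kb in the other lists. Sox17 of endoderm was 287.7 kb away in WT and 74.0 kb in the others, and Sox14 was at least 245.1 kb away. Sox15 came within 7.4 kb with 2HG and stayed 15.9 and 15.5 kb away in WT and CLPP-KO. Tbx4 of hindlimb and lung was 41.3 to 41.5 kb away, Tbx19 of pituitary 32.9 to 33.0 kb and Tbx22 of palate 136.7 to 136.9 kb. Tbx6 of paraxial mesoderm was 3.4 kb away in every list and Tbx10 7.5 to 7.6 kb.

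Other genes of the same pathways were counted by list, to be read beside the 51.3, 56.4 and 58.2% of all coding genes marked in WT, with 2HG and in CLPP-KO. Of 12 GATA cofactors, 10 were marked in every list, with Lyl1 and Ldb2 unmarked throughout. Of 22 HMG-box relatives of Sox, 18 were marked in WT and 20 in each of WT + 2HG and CLPP-KO, the gained genes being Tox2 and Tox3. All 11 partners of Mga in PRC1.6 were marked in every list. Of 7 cardiac partners of T-box and GATA factors, 2 were marked in WT, 5 with 2HG and 6 in CLPP-KO. Nkx2-5, Hand2 and Isl1 were gained in both lists (percentiles 14.6, 32.8 and 20.3 with 2HG and 28.5, 53.9 and 36.0 in CLPP-KO), and Myocd in CLPP-KO alone (6.3). Of the 5 cardiac partners without a WT peak, 3 were thus gained with 2HG and 4 in CLPP-KO, where 11.6 and 14.9% of such coding genes were, and of the 4 such HMG-box relatives 2 were gained in each. These lists are small and were chosen with earlier results of these data known. They were not recounted at equal list length or compared with genes of like CpG content, so they are no independent support for the gains above. The PRC1.6 genes were all marked in WT and could not gain a peak. Lyl1 and Ldb2, the only GATA cofactors without a WT peak, gained none. Nkx2-5 is also among the muscle markers. No gene of these lists lost its promoter peak.

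Shared windows limit the assignment of peaks to genes. Of the 42 genes, 31 had a start of a noncoding gene within 2000 bp of one of their own. A start of another gene lay inside 14 of the 31 promoter peaks in WT, 16 of 36 with 2HG and 21 of 52 in CLPP-KO.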

How the data were processed

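H3K4me3 ChIP–seq covered 12 samples (4 per condition) and 3 inputs. According to the study's methods and the submitters' processing notes, the authors trimmed reads with fastp 0.23.4, mapped them to GRCm39 with BWA 0.7.17 and called peaks with Genrich 0.6.1 over the 4 replicates of a condition, and deposited 1 list per condition. The deposited signal of a peak is the area under its curve, and its significance is the summit −log10 p-value of the authors. Neither is scaled between lists, so both were used as ranks within a list. The study states 1 sequencing depth for the experiment, which was not used here, and the lists give no reads per sample.

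Genes and starts came from GENCODE M39 (21770 coding genes), and Tbxt was matched through a RefSeq synonym. No peak lay beyond a chromosome's end. A gene was marked when a peak overlapped a start ± 2000 bp by at least 1 bp, and gained when marked in CLPP-KO or WT + 2HG and not in WT. Widths are in bp, positions 1-based. Shares carry 95% Wilson intervals. No test between conditions was possible. Every gene of the set is accounted for. Full positions were given for genes marked in some lists, for the 3 of largest area in each list and for genes with known adipose or mesenchymal roles. The genes and lists were chosen with earlier results of these data known. On simulated data 200 of 200 planted calls were right, and bedtools 2.31.1 gave the same gene sets for 3 of 3 lists. Software was matplotlib 3.10.9, pysam 0.24.0, scipy 1.17.1, pandas 2.3.3 and numpy 2.4.6 under Python 3.11.15. Alternatives changed the window, the starts, the assignment, list length and peak thresholds.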

Additional observations from a re-analysis of the deposited data

How the results depend on the processing

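Of 161 alternative values, 145 stayed within 1.5 times the reported count or within the interval of the reported median, and 16 moved. The genes gained in CLPP-KO numbered 12, and 7 with lists of equal length by area (all coding genes 8.39%), 5 by summit p (8.28%), and 7 when WT + 2HG and CLPP-KO peaks needed an area of 1000 (8.34%). Those gained in WT + 2HG numbered 7, and 3, 3 and 3 under the same settings (all coding genes 7.26, 7.13 and 4.75%). Under these settings the gained CpG-rich genes fell from 8 to 4, 2 and 4 of 9 in CLPP-KO (all CpG-rich coding genes 36.1, 34.9 and 36.0%) and from 4 to 2, 2 and 2 with 2HG (32.3, 31.3 and 21.8%). The genes marked in CLPP-KO and not in WT + 2HG numbered 5, and 2 by equal length and summit p (all coding genes 3.14%) and 4 by equal length and area (3.32%), of which 1 (Tbx5) was among the reported 5 in both cases. The median percentile in WT + 2HG was 51.3 by area and 72.1 by width. A shorter list holds fewer weak peaks by construction. Gata4, Sox18 and Tbx21 kept their pattern under all 13 settings for marking, whereas Sox3 changed under 6 of 12, and Sox1, Sox2, Sox10, Gata5, Tbr1, Tbx1 and Tbxt under 5. With a summit p of at most 1e-05 in all lists, 13 genes were gained in CLPP-KO, 8 of them among the reported 12, and 8 in WT + 2HG, 3 of them among the reported 7 (all coding genes 15.0 and 13.1%), with 7 CpG-rich genes of 14 in WT + 2HG (46.0%). When peaks of every list needed an area of 1000 or more, the counts were 13 (7 shared) and 9 (3 shared) (all coding genes 16.9 and 13.5%), with 8 CpG-rich genes of 15 in WT + 2HG (44.3%). The CpG-rich counts by setting, canonical starts, the set without Tbxt, and the rankings by p, width or equal length behind the comparison of percentiles were added after seeing the data. No paired analysis was possible because the replicates of each condition had been combined into 1 list, and for the same reason no replicate could be left out and each value rests on 1 list.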
